A study of Mus musculus with 3 samples.

Results

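The 35 genes described here encode the mTOR kinase complexes and the proteins that report amino acids, growth factor signals and lysosomal state to them. They were taken by symbol from a list of the pathway's genes, and all 35 were found among the 31053 genes of the count tables. RNA of single hippocampal cells was counted as unique molecular identifiers (UMIs, each standing for 1 captured RNA molecule) in 3 droplet libraries, here replicates 1, 2 and 3. All came from untreated wild-type C57BL/6 mice labelled 2 years old, with no transgene and no second group, so nothing here compares ages. In its title, replicate 3 is marked 25 months. The series describes 6 hippocampi in all, without saying which animal gave which library. Replicates may therefore share animals, and p-values measure only how differences between classes vary over these libraries.

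mTOR is a kinase that works in a pair of complexes. mTORC1, built on raptor, is drawn to the lysosome by Rag GTPases anchored on the Ragulator complex and is switched on there by Rheb; it promotes protein synthesis and holds back autophagy. The TSC proteins restrain Rheb, GATOR1 and the sestrins restrain the Rag proteins when amino acids are scarce, and the folliculin complex acts on RagC and RagD, which in turn set where the transcription factors TFEB and TFE3 reside. mTORC2, built on rictor, phosphorylates Akt. In the brain the pathway is known for its part in cell growth, myelination and the lysosomal programme of microglia.

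Cell classes were set by marker detection: a barcode belonged to a class when all 3 of that class's markers had at least 1 UMI and no other class had all 3. Of 12431 barcodes kept after filtering, 4266 were endothelial (Cldn5, Flt1, Pecam1), 1806 astrocytes (Slc1a2, Aqp4, Gja1), 1651 microglia (Cx3cr1, P2ry12, C1qa), 250 ependymal (Ccdc153, Tmem212, Foxj1), 107 pericytes (Vtn, Kcnj8, Abcc9) and 213 oligodendrocyte precursors (OPC; Pdgfra, Cspg4, C1ql1). Another 4138 had no class, 788 of them because they met several. Replicate 2 was small, with 10 OPC, 17 pericytes and only 8 ependymal barcodes. The last fell under the minimum of 10, so that 17 summed profiles were tested and ependymal values below are those of replicates 1 and 3. Libraries shared 3, 12 and 2 barcode sequences pairwise. The median mitochondrial share per library was 10.0% to 12.3% in astrocytes, 6.48% to 9.56% in OPC and at most 6.22% in the other classes. Levels are given in CPM, the UMIs of a gene in each 1000000 UMIs of a class in a library. The summed profiles held 73004 to 21074199 UMIs where tested, and 1 UMI in the OPC of replicate 2 is a level of 13.7 CPM. Of 5 further markers per class that had not set the classes, all 5 stood higher in every profile of their class than in all other profiles, except for astrocytes with 4 of 5.

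Haemoglobin and other red cell RNA made up 1.04% to 1.83% of endothelial UMIs and at most 0.190% in any other class, and its part in the endothelial results was not tested. The 5 smooth muscle markers summed to 1135 to 2360 CPM in pericytes and to 587 and 784 in ependymal cells, against 67.6 at most elsewhere. Border macrophage markers reached 1581 in 1 pericyte profile. The 5 neuron markers summed to 601 to 1288 CPM in OPC, 237 to 562 in pericytes and up to 606 in ependymal cells. They reached 178 at most in astrocytes and 12.1 in endothelial cells and microglia. Their part in the results of OPC, pericytes and ependymal cells was not tested. Most barcodes with all 3 ependymal markers, 465 of 726, also held all 3 astrocyte markers and were left out of both classes. The 250 that stayed had medians of 3640 and 2999 UMIs in replicates 1 and 3, and median mitochondrial shares of 1.79% and 0.977%. With the barcodes that met just these 2 classes counted as ependymal there were 689, with medians of 8602 to 10941.5 UMIs over the 3 libraries, and the values of that wider set are given beside the ependymal results. Its median mitochondrial share was 3.91% to 5.02%. The part of the low mitochondrial share of the 250 in the ependymal results was not tested.

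Each class was set against the unweighted mean of the other 5 on the log2 scale with edgeR's quasi-likelihood test, with the library as a block and adjustment over 12509 genes. The fit uses TMM factors, which rescale each profile, and averages the other classes on the log scale, whereas the CPM printed here are on the plain library totals. The TMM factors alone move a fitted change by 0.74 in microglia, 0.26 in endothelial cells, 0.12 in astrocytes, -0.08 in ependymal cells, -0.45 in pericytes and -0.59 in OPC. A fitted change can therefore differ from the CPM, and it ran against the order of the plain means for 5 of the 79 calls made here, which were Fnip2 in endothelial cells, Tsc1 and Rragd in microglia and Lamtor5 and Sesn1 in OPC. Of the 35 genes 34 passed the filter on low counts. The one that did not was Deptor, which encodes an mTOR inhibitor. All 34 differed among the 6 classes, where 91.1% of all tested genes did. Summed over the 35 genes, the levels were 1507 to 1551 CPM in endothelial cells, 1586 to 1663 in astrocytes, 1538 to 1673 in microglia, 1387 and 1321 in ependymal cells, 1677 to 1990 in pericytes and 1630 to 2130 in OPC.

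In microglia 15 of the 34 genes were higher and 3 lower, where 32.5% and 23% of all tested genes were. In astrocytes 11 were higher and 5 lower, where 30% and 18.5% of all genes were. In endothelial cells 11 were higher and 3 lower, against 32.3% and 18.6%. OPC had 7 higher and 6 lower, against 23.4% and 19.9%, pericytes 2 and 2, against 9.98% and 9.79%, and ependymal cells 2 and 12, against 23% and 16.2%. In ependymal cells the share lower lay above its background and the share higher below it. In microglia the share higher lay above its background and the share lower below it. The median change of the 34 genes was 0.35 in endothelial cells (0.10 over all genes), 0.25 in astrocytes (0.14), 0.15 in microglia (0.04), 0.06 in OPC (-0.03), -0.46 in pericytes (-0.32) and -0.66 in ependymal cells (-0.11). Without Rragb, whose fitted change has no fixed size, the medians were 0.31, 0.23, 0.18, 0.06, -0.44 and -0.74 in the same order. RLE scaling moved the median of all genes from 0.10 to -0.14 in endothelial cells, from 0.04 to -0.14 in microglia, from -0.11 to 0.09 in ependymal cells and from -0.32 to -0.13 in pericytes. The members higher and lower in endothelial cells then numbered 6 and 8, over all genes 3012 and 3147 where TMM gave 4044 and 2332. In microglia they numbered 15 and 6 (all genes 3499 and 3497, where TMM gave 4070 and 2878), in ependymal cells 2 and 8 (3341 and 1477, where TMM gave 2873 and 2027) and in pericytes 2 and 0 (1453 and 769, where TMM gave 1248 and 1225). On plain library totals, a fit added after seeing the data, the median of all genes was -0.69 in microglia, 0.52 in OPC, 0.13 in pericytes and -0.14 in endothelial cells. There 11 genes were higher and 16 lower in microglia (all genes 2270 and 5719), 17 and 1 in OPC (5154 and 1282), 5 and 0 in pericytes (1916 and 443), 6 and 8 in endothelial cells (2965 and 3137), 9 and 8 in astrocytes (3284 and 2768) and 2 and 8 in ependymal cells (3155 and 1645). The split of higher against lower genes in a class thus depends on the scaling. Of the 79 calls 57 were kept on library totals, 21 lost the threshold and 1, Lamtor5 in OPC, changed sign, the only one to do so in any alternative.

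Another view asks, on the CPM without TMM factors, whether every profile of a class lay above, or below, every profile of the other classes. In microglia 5 of the 34 genes lay above all others and 4 below, where 6.65% and 8.35% of all tested genes did. In ependymal cells 1 lay above and 4 below (10.5% and 3.05% of all genes), in pericytes 2 (Eif4ebp2 and Nprl3) and 0 (4.83% and 1.53%) and in OPC 2 (Tsc1 and Akt1s1) and 0 (10.9% and 1.25%). Endothelial cells (5.89% and 1.75%) and astrocytes (4.41% and 2.11%) had none in either direction, so that their higher genes shared a range with some other profile. Rheb and Rraga, below all others in microglia, and Nprl3, above all others in pericytes, did not pass in those classes with TMM.

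**Figure D1:**
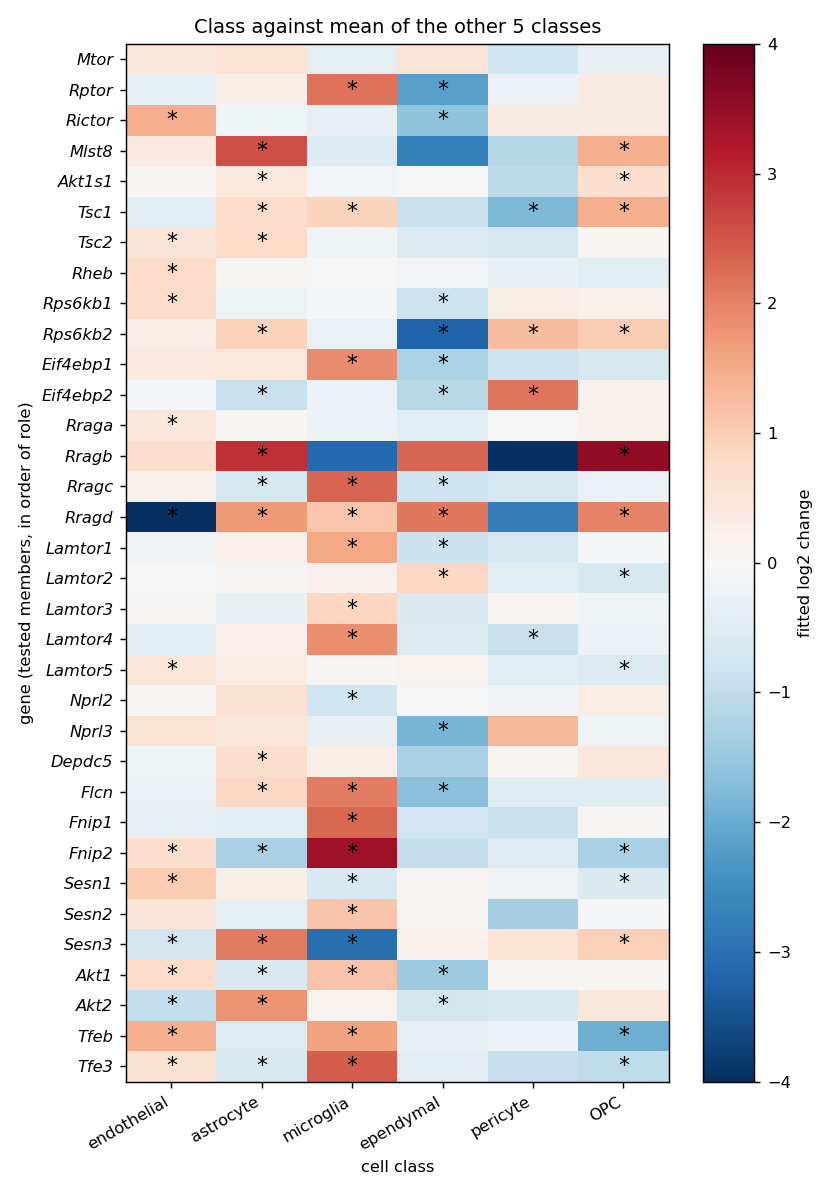
Fitted log2 change of each of the 34 tested genes (rows, by role) in each class (columns) against the mean of the other 5 classes; red is higher, blue lower, colours stop at 4 on either side, and an asterisk marks an adjusted p under 0.05. The microglia column holds 15 starred red cells, among them Rptor, Rragc, Flcn, Fnip1, Fnip2 and Tfe3; the blue Rragb cell of pericytes stands for 0 UMIs and its colour gives no measured size.

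Among the subunits of the kinase complexes, Mtor itself, the catalytic kinase, passed in no class with TMM scaling. It stood at 17.4, 21.1 and 21.8 CPM in endothelial cells of replicates 1, 2 and 3, at 26.1, 23.9 and 18.9 in astrocytes and at 8.39, 11.2 and 9.35 in microglia. The 3 microglia values lie below those of endothelial cells and astrocytes, yet the fitted change was -0.39 ± 0.27 (log2 ± SE, edgeR adjusted p = 0.229), and on library totals it was -1.13 ± 0.28 and passed (0.00111). Ependymal cells stood at 17.4 and 29.9 and pericytes at 5.63, 0 and 37.0.

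Of the scaffolds of the complexes, Rptor was higher in microglia and Rictor in endothelial cells. Rptor, which encodes raptor of mTORC1, stood at 41.5, 41.4 and 47.9 CPM in microglia, 10.2, 14.1 and 17.1 in endothelial cells and 22.4, 19.5 and 20.0 in astrocytes. Every microglia profile lay above every other profile, though OPC came close with 41.1 in replicate 2. The change in microglia was 2.16 ± 0.19 (log2 ± SE, edgeR adjusted p = 1.98e-10), and 1.42 ± 0.21 on library totals. Rictor, which encodes the scaffold of mTORC2, stood at 104, 160 and 100.3 CPM in endothelial cells and 28.5, 35.8 and 32.0 in microglia. Pericytes (84.4, 88.9 and 111) and OPC (110, 82.2 and 79.4) reached into the endothelial range, and astrocytes lay between at 52.2, 56.5 and 40.4. The endothelial change was 1.45 ± 0.15 (edgeR adjusted p = 2.4e-09). Of the summed UMIs of the pair, Rictor held 91.0%, 91.9% and 85.5% in endothelial cells and 40.7%, 46.4% and 40.1% in microglia (exact 95% intervals of replicate 1: 89.8% to 92.2% and 36.2% to 45.4%). The intervals cover counting error only. Pericytes, with Rictor shares of 75.0%, 90.0% and 83.3% (20, 10 and 18 UMIs), reached the endothelial range. OPC had 79.8%, 66.7% and 68.9%, and ependymal cells 100% and 75.0% from 5 and 28 UMIs. In ependymal cells both genes were lower, Rptor at 0 and 9.10 CPM and Rictor at 14.5 and 27.3. In the wider ependymal set Rptor stood at 7.36, 3.54 and 13.8 and Rictor at 41.5, 46.0 and 34.3, and both stayed lower. The Rptor call rested on 7 UMIs, all in replicate 3. It was lost without barcodes holding 2 markers of another class and with 2 of 3 markers (edgeR adjusted p up to 0.181), whereas Rictor passed under every alternative.

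Mlst8, a subunit of both complexes, stood at 16.4, 17.4 and 13 CPM in astrocytes, 3.13, 2.87 and 6.06 in endothelial cells and 0.916, 2.24 and 2.70 in microglia. The astrocyte values overlap those of OPC (10.1, 13.7 and 13.2) and lie above the other classes of this test. Its change in astrocytes was 2.56 ± 0.37 (log2 ± SE, edgeR adjusted p = 2.03e-06), and lay between 1.44 and 4.83 over the alternatives. Ependymal cells and pericytes held 1 Mlst8 UMI each, and both enter the mean of the others, so the size of the change is not firm. In OPC Mlst8 passed at 1.43 ± 0.57 (16 UMIs, edgeR adjusted p = 0.0439) but not without replicate 1, 2 or 3 (edgeR adjusted p = 0.355, 0.103 and 0.0739). Akt1s1, which encodes the mTORC1 inhibitor PRAS40, stood at 60.6, 54.8 and 87.0 in OPC, above every other profile, and was higher by 0.66 ± 0.21 (edgeR adjusted p = 0.0119). Leaving out replicate 1 or 3 ended that call (0.0669 and 0.299), and any replicate left out ended the call of Akt1s1 in astrocytes (0.42 ± 0.17, edgeR adjusted p = 0.041, then 0.186, 0.182 and 0.0966). Deptor had 278 UMIs over the tested profiles, with 6.81, 19.5 and 3.75 CPM in astrocytes. It had none among 1393885 OPC UMIs, which allows a level of up to 2.15 CPM.

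The TSC proteins and Rheb are the upstream brake and switch of mTORC1. Tsc1, which stabilises the TSC complex, stood at 58.1, 137 and 52.9 CPM in OPC, above every other profile. Astrocytes had 30.8, 41.3 and 22.7, microglia 18, 29.1 and 24.3 and endothelial cells 9.49, 18.7 and 17.2. The change was 1.46 ± 0.26 in OPC and 0.74 ± 0.22 in astrocytes (log2 ± SE, edgeR adjusted p = 3.98e-05 and 0.00614), the latter ended without replicate 1 (0.204). The astrocyte call was also lost with at most 10% mitochondrial UMIs and with barcodes of 3000 to 20000 UMIs. Tsc1 also passed in microglia (0.90 ± 0.21), although its mean there, 23.8, is below the 30.1 of the other classes, and it did not pass on library totals (0.15 ± 0.24, edgeR adjusted p = 0.655). The pericyte value rests on 4 UMIs, and its call as lower (edgeR adjusted p = 0.0317) ended without each replicate (0.0677, 0.258 and 0.193). Tsc2, which carries the activity toward Rheb, stood at 28.2, 21.7 and 30.5 in astrocytes and 10.1, 12.3 and 12.5 in microglia. It was higher in astrocytes by 0.78 ± 0.21 (edgeR adjusted p = 0.00286; 0.0704 without replicate 1) and in endothelial cells by 0.51 ± 0.20 (0.0368; 0.313 with RLE, and 0.179 and 0.107 without replicates 1 and 2). Rheb, the GTPase that switches mTORC1 on, stood at 264, 243 and 201 CPM in endothelial cells, a range that pericytes (248, 138 and 185) and OPC (205, 123 and 206) reached. Its microglia values of 117, 112 and 116 lay below every other profile. Rheb was higher in endothelial cells by 0.76 ± 0.14 (edgeR adjusted p = 6.14e-05). The fitted change in microglia was -0.01 ± 0.15 and did not pass (edgeR adjusted p = 1.0), although the plain means were 115 there and 193 in the other classes. On library totals it was -0.75 ± 0.15 (edgeR adjusted p = 7.41e-05).

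The genes of the mTORC1 substrates split by class. Eif4ebp2, which encodes a repressor of cap-dependent translation, had its high level in pericytes, the contractile cells on capillaries: 219, 306 and 215 CPM there, 101, 54.8 and 66.2 in OPC, 45.0, 55.0 and 39.0 in endothelial cells and 24.7 to 37.8 in the other profiles. No other profile reached the pericyte range. The pericyte change was 2.13 ± 0.21 (log2 ± SE, edgeR adjusted p = 1.02e-08, 99 UMIs in all), and it passed under every alternative with 1.72 to 2.57. Eif4ebp1, its paralog, stood at 29.1, 34.7 and 60.9 in microglia, 24.6, 23.9 and 26.8 in astrocytes and 19.6, 19.4 and 28.9 in endothelial cells. It was higher in microglia by 1.89 ± 0.18 (edgeR adjusted p = 7.34e-10; 1.15 ± 0.19 on library totals), although replicate 1 of microglia lay below replicate 3 of pericytes (29.6, from 4 UMIs) and of OPC (30.3). Eif4ebp1 held 51.1%, 55.4% and 64.4% of the summed UMIs of the pair in microglia and 2.50%, 6.06% and 12.1% in pericytes (exact 95% intervals of replicate 3: 60.4% to 68.3% and 3.40% to 28.2%). Astrocytes (43.2%, 47.8% and 49.2%) came close to microglia, and OPC (12.1%, 20.0% and 31.4%) to pericytes.

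Of the S6 kinases, which phosphorylate ribosomal protein S6, Rps6kb1 was higher in endothelial cells, at 67.7, 66.1 and 54.6 CPM. The change was 0.72 ± 0.17 (log2 ± SE, edgeR adjusted p = 0.000856). OPC (77.0, 82.2 and 75.6) and pericytes (73.2, 59.2 and 81.4) did not pass in their own comparison, though OPC did on library totals (0.72 ± 0.22, edgeR adjusted p = 0.00878). Rps6kb2 was higher in astrocytes (28.7, 30.4 and 22.0; change 0.92 ± 0.24, edgeR adjusted p = 0.0024, and 0.278 where a barcode could hold several classes), in 2 of 3 OPC libraries (1.01 ± 0.31, edgeR adjusted p = 0.00874) and in pericytes (1.24 ± 0.44, edgeR adjusted p = 0.0463). The last pair rested on 57 and 18 UMIs and was lost without replicate 1 (0.0682 and 0.264) or replicate 3 (0.197 and 0.175). In ependymal cells Rps6kb2 was lower on 3 UMIs, Rps6kb1 at 49.4 and 24.7 CPM (edgeR adjusted p = 0.0324, and 0.0967 with RLE), and Eif4ebp1 and Eif4ebp2 were lower by 1.27 and 1.11 on the log2 scale. All 4 calls also passed in the wider set. Without replicate 3, none of the 4 did (Rps6kb1 0.568, Rps6kb2 0.0719, Eif4ebp1 0.166 and Eif4ebp2 0.147), nor did Eif4ebp1 without replicate 1 (0.0853). Eif4ebp2 was lower in astrocytes too (32.4, 26.1 and 27.6; change -0.91 ± 0.18, edgeR adjusted p = 0.000103).

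The Rag GTPases work as dimers of RagA or RagB with RagC or RagD, and the members of each pair differed by class. Rragc stood at 118, 165 and 103 CPM in microglia, above every other profile; OPC stood at 68.2, 41.1 and 47.3. The microglia change was 2.32 ± 0.16 (log2 ± SE, edgeR adjusted p = 6.16e-13). Rragd, its paralog, had 0.807, 0.239 and 0.957 in endothelial cells, 30 UMIs among 37789638, but 54.3, 13.7 and 37.8 in OPC, 24.8, 13 and 27.1 in astrocytes, 49.4 and 31.2 in ependymal cells and 16.0, 10.1 and 8.72 in microglia. Endothelial Rragd was lower by 4.11 ± 0.82 on the log2 scale (edgeR adjusted p = 0.000132), a call lost without replicate 3 (1.0), where pericytes are left with 0 UMIs. Rragd held 1.71%, 0.446% and 2.17% of the summed UMIs of the pair in endothelial cells, 11.9%, 5.77% and 7.81% in microglia and 43.2%, 33.3% and 48.0% in astrocytes (exact 95% intervals of replicate 1: 0.999% to 2.72%, 9.85% to 14.2% and 38.0% to 48.6%). Rragd also passed in microglia at 1.10 ± 0.31, but its mean of 11.6 is below the 20.1 of the other classes, and the call ended without replicate 1 (edgeR adjusted p = 0.304) and on library totals (0.402). Rragd was higher in astrocytes by 1.69 ± 0.28, in OPC by 1.97 ± 0.34 and in ependymal cells by 2.12 ± 0.38 (edgeR adjusted p = 1.21e-05, 2.8e-05 and 6.28e-05). In the wider ependymal set Rragd stood at 51.5, 53.1 and 47.6. Rragc was lower in astrocytes at 32.6, 26.1 and 29.3 (edgeR adjusted p = 0.00416; 0.0956 without replicate 1) and in ependymal cells (edgeR adjusted p = 0.0305; 0.109 with RLE, and 0.518 and 0.0579 without replicates 1 and 3).

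Of the other Rag pair, Rraga was measured in every class, from 36.3, 48.1 and 45.3 CPM in microglia, below every other profile, to 114, 95.9 and 117 in OPC. With TMM it passed in endothelial cells only (81.8, 86.4 and 83.0; change 0.46 ± 0.12, edgeR adjusted p = 0.00292), and not with RLE, with DESeq2 or without replicate 1 (adjusted p = 0.171, 0.127 and 0.0518). On library totals Rraga was instead lower in microglia (-0.98 ± 0.14, edgeR adjusted p = 9.61e-07) and higher in OPC (0.73 ± 0.16, 0.000426). Rragb stood at 22.7, 27.4 and 7.56 in OPC, 9.24, 2.17 and 7.85 in astrocytes and 1.80, 1.68 and 2.23 in endothelial cells. Microglia held 2 Rragb UMIs among 13753345, and pericytes 0 among 414133, which allows up to 7.24 CPM. Rragb was called higher in astrocytes and OPC (edgeR adjusted p = 0.000298 and 0.000207; OPC 0.106 without replicate 1); because a class at 0 enters the mean of the others, its fitted changes have no fixed size and are not given.

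The 5 Ragulator genes, whose products anchor the Rag dimers to the lysosome, did not move as a unit. In microglia Lamtor1, the membrane anchor (121, 167 and 152 CPM), Lamtor4 (170, 135 and 217) and Lamtor3 (79.4, 89.5 and 58.3) were higher by 1.55 ± 0.13, 1.86 ± 0.16 and 0.87 ± 0.15 (log2 ± SE, edgeR adjusted p = 5.51e-11, 1.09e-10 and 1.01e-05). Lamtor3 stood as high or higher in pericytes (84.4, 88.9 and 111) and OPC (84.6, 82.2 and 83.2). For Lamtor1 and Lamtor4, too, the microglia profiles did not all lie above every other profile. On library totals Lamtor1 and Lamtor4 were higher by 0.81 ± 0.13 and 1.12 ± 0.16, while Lamtor3 did not pass (0.13 ± 0.15, edgeR adjusted p = 0.509). Lamtor2 (85.2, 82.8 and 101) and Lamtor5 (53.9, 56.0 and 70.9) did not pass there with TMM and were lower on library totals, by 0.56 and 0.68 on the log2 scale. Lamtor2 had its high level in ependymal cells, at 218 and 246, where no other profile exceeded 148; its change was 0.84 ± 0.17 (edgeR adjusted p = 0.000235), and in the wider set it stood at 224, 145 and 213. Lamtor1 was lower in ependymal cells at 66.9 and 57.2 (edgeR adjusted p = 0.00222; 0.271 without replicate 3). Lamtor5 was higher in endothelial cells by 0.50 ± 0.13 (105, 72.5 and 129; edgeR adjusted p = 0.00188), but not with RLE (0.123) or without replicate 3 (0.0639). In OPC Lamtor2 was lower (edgeR adjusted p = 0.0037; 0.0772 without replicate 3), as was Lamtor5 (0.0167; 0.282 and 0.092 without replicates 1 and 3). Neither passed on library totals (-0.09 ± 0.17 and 0.01 ± 0.19, edgeR adjusted p = 0.944 and 1.0). In pericytes Lamtor4 was lower on 30 UMIs (edgeR adjusted p = 0.0443), a call lost with RLE (0.136) and without replicates 1 or 2 (0.371 and 0.141). The summed Ragulator level was 510 to 600 CPM in microglia and 326 to 491 in endothelial cells, which did not overlap, while ependymal cells, pericytes and OPC reached 596, 570 and 563.

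The folliculin complex, which stimulates GTP hydrolysis by RagC and RagD, had all 3 of its members higher in microglia. Fnip2 stood at 95.8, 83.9 and 37.9 CPM in microglia and at no more than 22.2 in any other profile. Fnip1 stood at 128, 159 and 111 in microglia and at no more than 79.0 elsewhere, and Flcn, the subunit that carries the activity, at 35.1, 60.4 and 39.0. Both Fnip genes were separated from all other profiles, while Flcn overlapped astrocytes (33.9, 41.3 and 20.5) and 1 pericyte profile (37.0). The changes were 3.38 ± 0.21 for Fnip2, 2.29 ± 0.17 for Fnip1 and 2.07 ± 0.20 for Flcn (log2 ± SE, edgeR adjusted p = 9.81e-14, 4.59e-12 and 6.7e-10), each in 3 of 3 libraries. On library totals they were 2.64 ± 0.22, 1.55 ± 0.16 and 1.33 ± 0.21. Summed, the complex took 259, 303 and 188 CPM in microglia, against 53.2 to 96.2 in endothelial cells. Fnip2 was lower in astrocytes by 1.30 ± 0.33 on the log2 scale (6.97, 13 and 4.78; edgeR adjusted p = 0.00166) and in OPC (13 UMIs, edgeR adjusted p = 0.0254; 0.487 without replicate 1 and 0.192 on library totals). In endothelial cells (20.1, 20.3 and 16.9) it passed as higher at 0.69 ± 0.24, against the order of the means and not with RLE (edgeR adjusted p = 0.151) or without replicate 1 (0.175). Flcn was also higher in astrocytes (0.83 ± 0.22, edgeR adjusted p = 0.00251; 0.153 without replicate 1 and 0.231 where a barcode could hold several classes) and lower in ependymal cells (8 UMIs, edgeR adjusted p = 0.00658; 0.0707 and 0.103 without replicates 1 and 3).

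TFEB and TFE3 are transcription factors of lysosomal genes that mTORC1, through RagC and RagD, keeps in the cytosol. Tfe3 stood at 62.4, 59.3 and 79.7 CPM in microglia and at no more than 38.5 in any other profile, a change of 2.43 ± 0.18 (log2 ± SE, edgeR adjusted p = 6.08e-12). Tfeb was high in both microglia (34.6, 32.5 and 28.5) and endothelial cells (38.0, 28.7 and 44.6), with changes of 1.61 ± 0.20 and 1.42 ± 0.19 (edgeR adjusted p = 1.27e-07 and 4.46e-07). Replicate 3 of pericytes, at 37.0 from 5 UMIs, lay in that range. Tfe3 was higher in endothelial cells by 0.60 ± 0.20 (28.8, 38.5 and 28.0; edgeR adjusted p = 0.0137), but not with RLE (0.147) or without replicate 2 (0.126). Both were lower in OPC, on 12 UMIs of Tfeb and 27 of Tfe3 (edgeR adjusted p = 0.00026 and 0.0188; Tfe3 0.101 and 0.176 without replicates 1 and 3 and 0.270 on library totals), and Tfe3 in astrocytes in 2 of 3 libraries (16.2, 17.4 and 16.4; edgeR adjusted p = 0.0309; 0.270 and 0.305 without replicates 1 and 3). Rragc, Flcn, Fnip1, Fnip2, Tfeb and Tfe3 were all higher in microglia under every alternative. On library totals Rragc was higher by 1.59 ± 0.16, Tfeb by 0.88 ± 0.21 and Tfe3 by 1.70 ± 0.18.

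**Figure D2:**
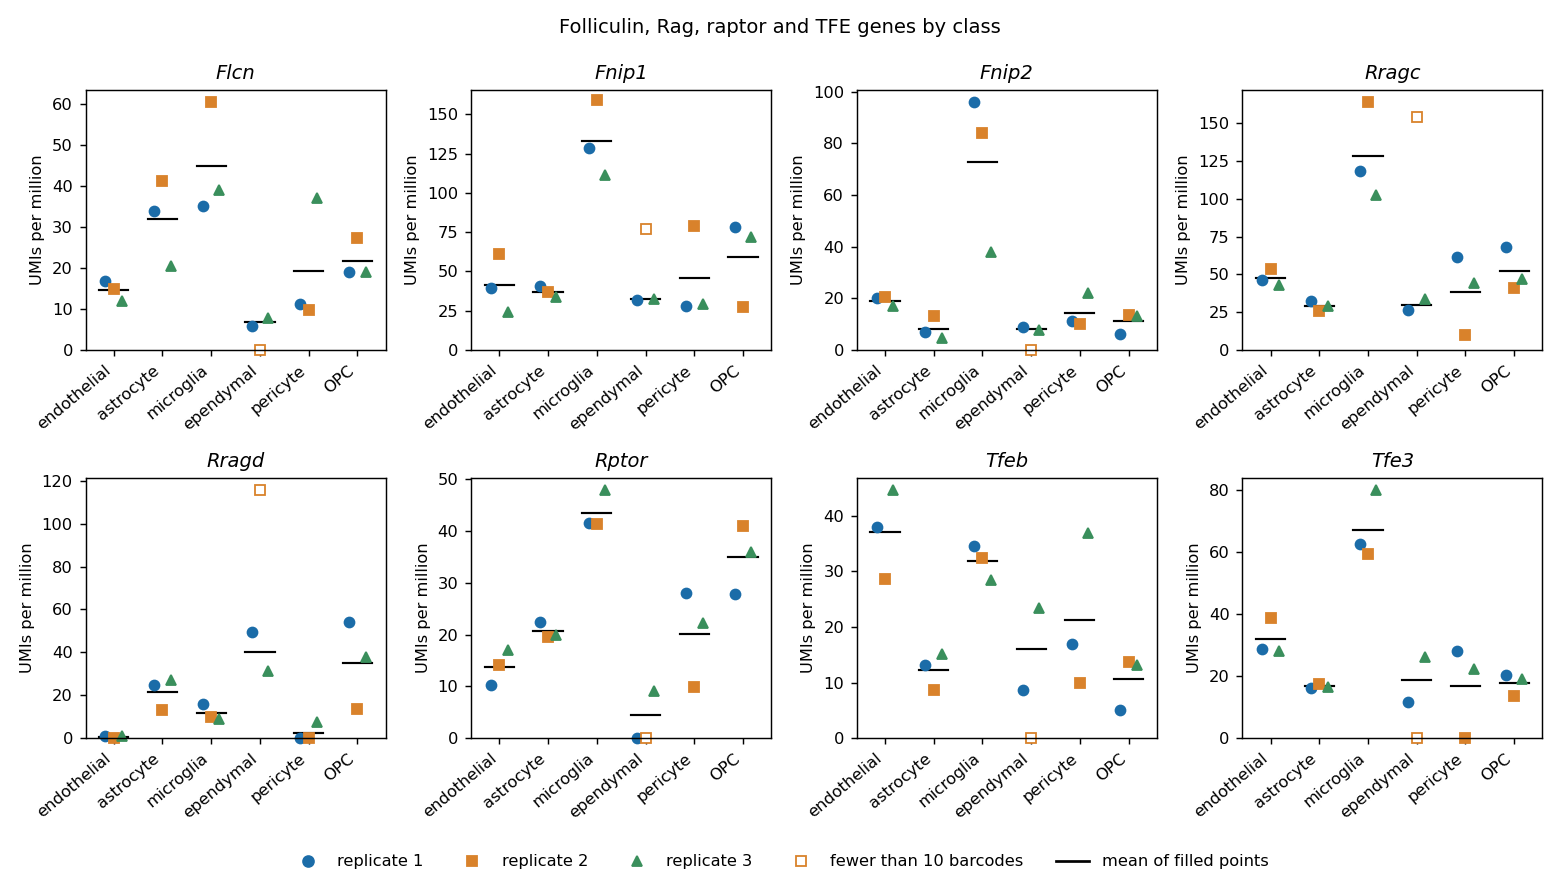
CPM (vertical axes, from 0) of 8 genes in the 6 classes; a point is a library, the bar the mean of the filled points, and the open square the 8 ependymal barcodes of replicate 2, which were not tested. Fnip1, Fnip2, Rragc, Rptor and Tfe3 show all 3 microglia points above every filled point of the other classes, and Rragd lies near 0 in endothelial cells.

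The motif CACGTG, which reads the same on both strands and is the core bound by TFEB and TFE3, was looked for in RefSeq promoter windows (GRCm38.p6, the patch release of mm10) from 250 bases before to 50 after the start. Windows were found for 31 of the 35 genes, and 6 of these, or 19.4%, held it, against 8.09% of 27025 genes with a window in the table. Of the 6, 4 (Rragc, Fnip1, Lamtor1 and Lamtor4) were higher in microglia, and Rheb and Rragb were not. Of the 34 tested genes 15 were higher there, as were 32.5% of all tested genes. These shares hold for genes with or without the motif. The share among all genes with the motif was not computed. Deptor, Rps6kb2, Eif4ebp1 and Lamtor3 had no window, and of these Eif4ebp1 and Lamtor3 were higher in microglia too. The stretches of 150 bases before the start of the 6 genes with the motif follow, 5′ to 3′ on the gene's strand with the motif in capitals.
Rragc (chr4:123917283-123917432, + strand): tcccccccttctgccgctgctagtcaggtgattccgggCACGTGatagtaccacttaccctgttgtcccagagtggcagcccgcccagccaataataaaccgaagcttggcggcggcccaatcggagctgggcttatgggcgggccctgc
Fnip1 (chr11:54438029-54438178, + strand): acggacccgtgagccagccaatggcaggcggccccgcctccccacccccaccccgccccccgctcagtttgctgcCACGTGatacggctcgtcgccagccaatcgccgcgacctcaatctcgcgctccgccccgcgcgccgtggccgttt
Lamtor1 (chr7:101905687-101905836, + strand): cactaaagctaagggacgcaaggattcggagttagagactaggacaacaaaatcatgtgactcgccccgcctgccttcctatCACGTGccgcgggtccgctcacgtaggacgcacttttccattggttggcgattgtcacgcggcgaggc
Lamtor4 (chr5:138255332-138255481, + strand): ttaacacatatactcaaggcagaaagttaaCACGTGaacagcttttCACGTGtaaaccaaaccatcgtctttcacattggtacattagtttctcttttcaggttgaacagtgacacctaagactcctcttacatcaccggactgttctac
Rheb (chr5:24842362-24842511, - strand): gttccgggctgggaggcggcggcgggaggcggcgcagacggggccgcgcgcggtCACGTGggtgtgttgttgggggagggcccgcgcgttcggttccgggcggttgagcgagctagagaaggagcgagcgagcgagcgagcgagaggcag
Rragb (chrX:153139808-153139957, + strand): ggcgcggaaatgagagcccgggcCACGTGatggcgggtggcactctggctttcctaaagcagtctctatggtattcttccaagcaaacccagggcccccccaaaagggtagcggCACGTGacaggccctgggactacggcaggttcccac
The motif began 112 bases before the start in Rragc, 75 in Fnip1, 68 in Lamtor1, 120 and 104 in Lamtor4, 96 in Rheb and 127 and 36 in Rragb, whose other copy began 3 bases before the start and is not shown. The window of Flcn, Fnip2, Rragd, Tfeb or Tfe3 did not hold these letters. A match describes the sequence and is no measured site, and no binding was measured here.

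GATOR1, which switches RagA and RagB off when amino acids are low, differed in its summed level between classes. Nprl2, Nprl3 and Depdc5 summed to 24.3 to 37.2 CPM in endothelial cells, 39.9 to 44.7 in astrocytes, 12.8 to 25.7 in microglia and 48.0 to 54.8 in OPC. Ependymal cells had 32.0 and 19.5, and pericytes 28.1, 98.7 and 51.8 from 22 UMIs. Astrocytes were higher than endothelial cells and microglia in all libraries. Depdc5 was higher in astrocytes by 0.71 ± 0.26 (log2 ± SE, 14.1, 19.5 and 14.5 CPM; edgeR adjusted p = 0.0231) and Nprl2 lower in microglia by 0.81 on the log2 scale (3.66, 6.72 and 7.77; edgeR adjusted p = 0.02). Neither call was firm: Depdc5 was lost without replicate 1, 2 or 3 (0.151, 0.0653 and 0.161) and Nprl2 without replicates 1 or 2 (0.0715 and 0.140). Nprl3, called lower in ependymal cells on 3 UMIs (edgeR adjusted p = 0.0423), had 12.9 CPM on average in the wider set and did not pass there (0.721), nor without replicates 1 or 3 (0.0842 and 0.701).

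The sestrins, of which Sesn2 is known as a leucine sensor that binds GATOR2, differed from each other by class. Sesn3 stood at 193, 209 and 163 CPM in astrocytes and 186, 68.5 and 115 in OPC, against 6.41, 5.60 and 7.13 in microglia and 42.8, 41.4 and 20.1 in endothelial cells. Microglia lay below every other profile, and only the OPC of replicate 1 reached the astrocyte range. The change was 2.07 ± 0.17 in astrocytes and -3.01 ± 0.25 in microglia (log2 ± SE, edgeR adjusted p = 4.08e-11 and 5.83e-11). Sesn3 passed as higher in OPC in 2 of 3 libraries (0.95 ± 0.21, edgeR adjusted p = 0.00073; 0.134 without replicate 1) and as lower in endothelial cells (-0.74 ± 0.19, 0.00175; 0.221 without replicate 3). Sesn1, a target of p53 and FoxO factors, stood at 52.6, 70.8 and 60.4 in endothelial cells and 15.7, 19.0 and 17.9 in microglia, below every other profile. Sesn1 did not stand above every other profile in endothelial cells, and its OPC mean was 52.1 from 48 UMIs. It was higher in endothelial cells by 1.01 ± 0.14 and lower in microglia by 0.60 on the log2 scale (edgeR adjusted p = 9.11e-07 and 0.00398; -1.35 ± 0.18 in microglia on library totals), and lower in OPC against the order of the means (0.042; 0.0803 with RLE, 0.944 on library totals, and 0.250 and 0.424 without replicates 1 and 3). Sesn2 passed as higher in microglia, at 13.6, 6.72 and 8.09 and by 1.15 ± 0.32 (edgeR adjusted p = 0.00282), but not without replicate 1 (0.103) or on library totals (0.40 ± 0.33, 0.307). Endothelial cells (10.2, 10.1 and 7.66) overlapped microglia, and OPC (8.84, 13.7 and 13.2) had the higher mean. The share of Sesn3 in the summed UMIs of the 3 sestrins was 81.4%, 76.8% and 79.7% in astrocytes, 40.5%, 33.9% and 22.8% in endothelial cells and 17.9%, 17.9% and 21.5% in microglia (exact 95% intervals of replicate 1: 79.3% to 83.4%, 38.5% to 42.6% and 13.3% to 23.5%). OPC (81.2%, 38.5% and 74.4%) reached the astrocyte range, and pericytes had 68.0%, 68.4% and 66.7%. The 5 further astrocyte markers summed to 10967 to 11739 CPM in astrocytes, 111 to 178 in endothelial cells and 232 to 271 in microglia. They summed to 2134 and 2222 in ependymal cells, 1007 to 1171 in pericytes and 692 to 945 in OPC. Their part in the low Sesn3 values, and in the Sesn3 and Rragd values of ependymal cells, pericytes and OPC, was not tested.

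Akt1 and Akt2 encode kinases that mTORC2 phosphorylates and that inhibit the TSC complex. Akt2 stood at 109, 71.7 and 90.4 CPM in astrocytes and 18.8, 14.1 and 17.5 in endothelial cells, with OPC at 66.9, 13.7 and 75.6. Akt1 had 42.0, 36.9 and 43.7 in astrocytes, 79.9, 78.7 and 96.4 in endothelial cells and 72.8, 92.9 and 84.5 in microglia. OPC (83.3, 95.9 and 98.3) and pericytes (50.7, 158 and 81.4) had means above both. Astrocytes and endothelial cells did not overlap for either gene. Akt2 was higher in astrocytes by 1.79 ± 0.15 and lower in endothelial cells by 0.99 on the log2 scale (edgeR adjusted p = 1.44e-10 and 3.17e-05). Akt1 was lower in astrocytes by 0.61 on the log2 scale and higher in endothelial cells and microglia by 0.73 ± 0.14 and 1.15 ± 0.15 (edgeR adjusted p = 0.00339, 8.66e-05 and 1.23e-07). All 5 passed under every alternative, Akt1 in microglia with 0.41 ± 0.15 on library totals. Akt2 held 72.1%, 66.0% and 67.4% of the UMIs of the pair in astrocytes and 19.1%, 15.2% and 15.4% in endothelial cells (exact 95% intervals of replicate 1: 69.1% to 75.0% and 17.4% to 20.8%). Pericytes (43.8%, 15.8% and 21.4%) reached the endothelial range, and microglia (26.7%, 19.4% and 22.6%) came close to it. In ependymal cells Akt1 was lower, at 34.9 and 27.3 and below every other profile (-1.45 ± 0.27, edgeR adjusted p = 0.000101), and stood at 32.6, 31.9 and 36.4 in the wider set. Akt2 passed as lower in ependymal cells (edgeR adjusted p = 0.0458) but not in the wider set (0.596), with RLE (0.143) or without replicates 1 or 3 (0.385 and 0.245).

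**Figure D3:**
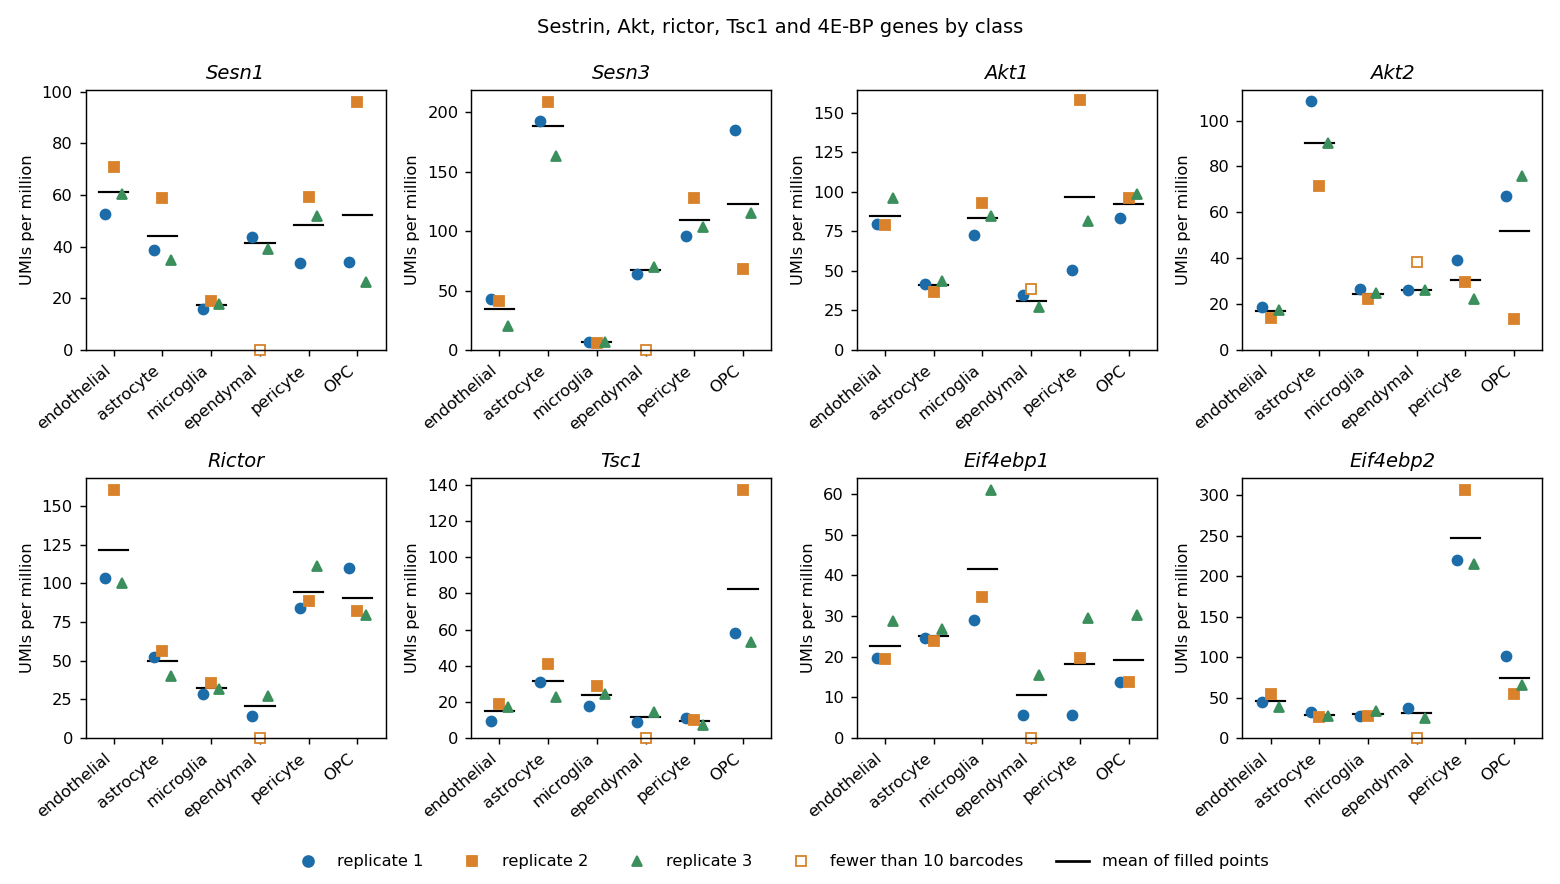
CPM (vertical axes, from 0) of 8 genes in the 6 classes, drawn as points per library with the mean of the filled points as a bar; the open square is the untested ependymal profile of replicate 2. Sesn3 and Akt2 are high in astrocytes, Sesn1 and Rictor in endothelial cells, Tsc1 in OPC and Eif4ebp2 in pericytes at 215 to 306. Other classes reach into the endothelial range of Sesn1 and Rictor.

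**Figure D4:**
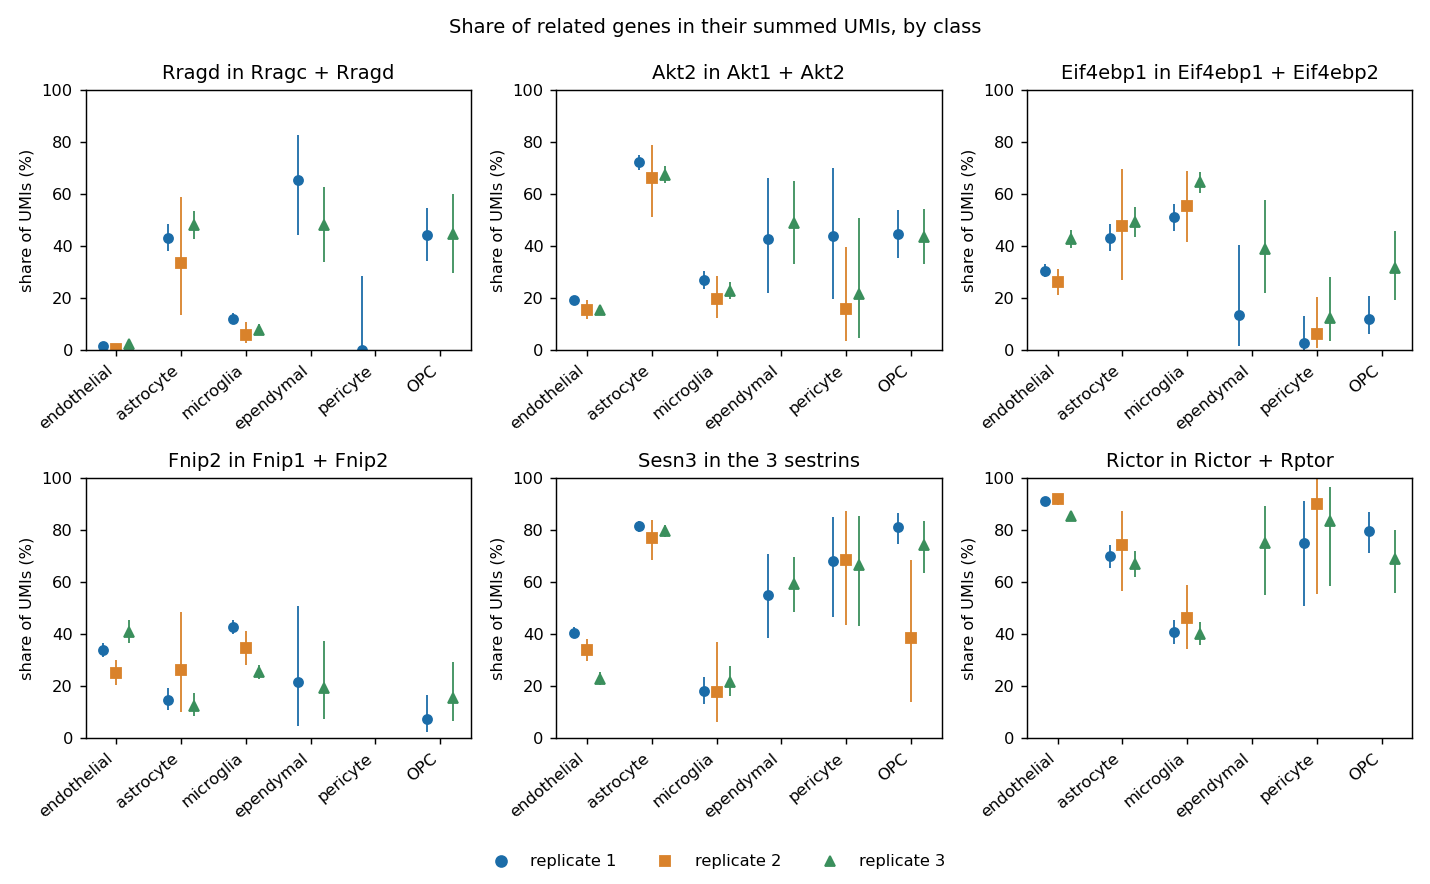
Share (%) of 1 gene in the summed UMIs of its pair or family, by class and library, with exact 95% binomial intervals as bars; libraries with fewer than 10 UMIs of the family are left out. Rragd lies near 0 in endothelial cells and between 33.3% and 48.0% in astrocytes, and Akt2 between 66.0% and 72.1% in astrocytes and between 15.2% and 19.1% in endothelial cells. The Rragd shares of OPC and ependymal cells reach 44.4% and 65.4%.

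The wider pathway was read from 55 further genes, all found in the tables (Castor1 and Castor2 under the older names Gatsl3 and Gatsl2), of which 52 were tested. In endothelial cells 23 were higher and 11 lower, in astrocytes 13 and 13, in microglia 20 and 11, in ependymal cells 8 and 10, in pericytes 7 and 5 and in OPC 7 and 14, beside the same background shares as above. The leucine transporter Slc7a5 led in endothelial cells, at 560 CPM on average against 30.2 in the other classes (4.65 ± 0.16, log2 ± SE, edgeR adjusted p = 5.41e-19), and was lower in ependymal cells (12.2; -2.13 ± 0.39). Of the insulin receptor substrates, Irs1 was lower in endothelial cells (5 UMIs in all; -5.22 ± 0.56) and Irs2 higher in ependymal cells (159 against 37.2; 2.73 ± 0.27). Sgk1, a kinase that mTORC2 phosphorylates, stood at 954.5 in microglia against 169 (4.18 ± 0.17) and at 17.4 in astrocytes against 356 (-3.71 ± 0.28). In pericytes Ddit4l, related to the mTORC1 inhibitor Redd1, stood at 250 against 20.8 (4.57 ± 0.24), and it was lower in microglia (10 UMIs; -4.32 ± 0.43). Prr5, a subunit of mTORC2, led in astrocytes at 33.6 against 4.31 (3.57 ± 0.25) and Wdr59, of GATOR2, was called higher in OPC at 24.8 against 4.45 (26 UMIs), where pericytes were at 0, so that its fitted change has no fixed size. Gatsl3, which encodes an arginine sensor, and its paralog Gatsl2 were called lower in OPC and pericytes on 1 and 2 UMIs. For these genes the edgeR adjusted p lay between 5.41e-19 for Slc7a5 in endothelial cells and 0.0348 for Gatsl2 in pericytes.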

How the data were processed

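The values are raw UMI counts per gene and barcode as the authors deposited them. The submitters' processing notes name Cell Ranger and mm10, with no version. The 3 libraries held 45716237, 7185668 and 40377042 UMIs in 7241, 1062 and 6456 barcodes. Of these, 6412, 954 and 5065 passed minimums of 500 UMIs and 300 genes and a maximum of 20% for mitochondrial RNA. Barcodes that met several classes were left out, which also treated doublets; Scrublet (scanpy 1.11.5, assumed rate 0.06) marked 190, 8 and 133 kept barcodes and its removal was an alternative. Dots in gene symbols were turned back to the characters of GENCODE M21 for 711 symbols.

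Each class was summed within each library into a profile (10 barcodes or more) and tested with edgeR 4.0.16 (limma 3.58.1, R 4.3.3; TMM, filterByExpr, quasi-likelihood, 9 residual degrees of freedom). Classes of one library come from the same suspension, so the library entered as a block. All classes, the small ones included, shared 1 estimate of a gene's spread. Each class was set against the unweighted mean of the other 5, with Benjamini-Hochberg adjustment and a threshold of 0.05 after taking out the 18 class markers. SE is the change divided by the root of the test's F value. The script was tested on simulated data, where false calls took a larger share of the calls than the threshold sets and part of the smaller changes was missed. Alternatives were RLE scaling, library totals without TMM factors, DESeq2 1.42.0, no filter, no block, each replicate left out and other rules for barcodes. The 2 rules on barcodes with several classes and the fit on library totals were chosen after seeing the data.

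All 35 members are described, and of the further pathway genes the called gene with the largest and the smallest change per class. Members and lists were chosen with earlier results of these data known. In GENCODE 20 members overlap another gene, 12 of them one on the same strand, and whether counting used strand is not given, so reads of such pairs may not be told apart.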

Additional observations from a re-analysis of the deposited data

How the results depend on the processing

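Of the 79 calls on single genes, 34 passed under each of the 16 alternatives that tested them and 45 did not under at least 1. The one reversal was Lamtor5 in OPC, -0.54 with TMM and 0.00647 on library totals. That setting gave 6 higher and 8 lower in endothelial cells, 8 lower in astrocytes (5 in the main analysis), 16 lower in microglia, 5 higher and 0 lower in pericytes and 17 higher and 1 lower in OPC. It omits the TMM factors and changes nothing else. Its counts over all genes, and those of RLE scaling for the classes named next, are given in the Results. The number of genes higher in endothelial cells, 11, was 6 with RLE scaling and 6 with DESeq2, and the number lower, 3, became 8 and 9. Over all genes DESeq2 gave 2907 higher and 4510 lower there, where the main analysis gave 4044 and 2332. The number lower in microglia, 3, became 6 and 7, that in pericytes, 2, became 0 and 0, and that in ependymal cells, 12, became 7 with DESeq2. Over all genes DESeq2 gave 4473, 618 and 1308 lower in these 3 classes (2878, 1225 and 2027 in the main analysis). Without barcodes holding 2 markers of another class, 5 genes were lower in endothelial cells, 5 in ependymal cells, 1 in pericytes and 2 in OPC. Over all genes 1706, 915, 564 and 1630 were then lower (2332, 2027, 1225 and 2485 in the main analysis). With 2 of 3 markers the first 3 counts of members were 5, 6 and 0 (all genes 2218, 1319 and 646). With several classes allowed per barcode, 5 were lower in endothelial cells, 6 higher in astrocytes (11 in the main analysis) and 8 lower in microglia. Over all genes these counts were 3320, 4368 and 3981 (2332, 3753 and 2878 in the main analysis). With ependymal and astrocyte barcodes taken as ependymal, 7 were lower in endothelial cells, 8 lower in microglia, 5 higher in ependymal cells (2 in the main analysis) and 1 higher in pericytes (2 in the main analysis). Over all genes these counts were 2940, 3617, 4295 and 1342 (2332, 2878, 2873 and 1248 in the main analysis). Profiles of at least 20 barcodes gave 5 lower in microglia and 0 in pericytes (all genes 3065 and 587). Barcodes of 3000 to 20000 UMIs gave 5 and 1 (all genes 2931 and 681). With no filter on low counts, and with at most 10% mitochondrial UMIs, 1 gene was higher in pericytes (all genes 1272 and 1202). With no replicate block 3 were lower in OPC (6 in the main analysis), where 2212 of all genes were (2485 in the main analysis). There 70 of the 79 calls passed. Leaving out 1 replicate gave 8 to 11 higher and 2 to 3 lower in endothelial cells (all genes 3613 to 4070 and 1557 to 2127). In astrocytes it gave 6 to 12 and 3 to 5 (3083 to 3814 and 1450 to 2285). In microglia it gave 14 to 16 and 2 to 3 (3411 to 4022 and 2155 to 2964). Pericytes had 1 to 2 and 0 to 1 (956 to 1205 and 543 to 757). OPC had 2 to 7 and 2 to 7 (2118 to 3103 and 1590 to 2310). Ependymal cells keep 1 profile without replicate 1 or 3, so no count is given for those fits. Without replicate 2 they had 2 and 13 (3119 and 2031). The cause of the other changes was not tested.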
